A study of Homo sapiens with 12 samples.

Results

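RNA polymerase II is the enzyme that transcribes the protein-coding genes of the nucleus, and the genes that encode 10 of its subunits, POLR2A, POLR2B, POLR2C, POLR2D, POLR2E, POLR2F, POLR2G, POLR2H, POLR2I and POLR2L, were followed across 12 RNA-seq libraries. The genes were taken by symbol, matched through the Ensembl gene identifier with its version dropped, out of 60660 identifiers in the count table. All 10 were found, and all 10 passed the filter on low counts that left 21803 genes for testing. HS578T, the name on all libraries, is an established line of triple-negative breast cancer with a mesenchymal character, and there are 4 groups of 3. Cells labelled 17p-intact (WT in the genotype label, cas9 in the titles) and cells labelled as having lost 1 copy of the short arm of chromosome 17 (17PKO in the titles) each received the vehicle DMSO or doxorubicin for 48 h. Doxorubicin is an anthracycline that intercalates into DNA and traps topoisomerase II. The dose was 170 nM in the intact cells and 1 µM in the deleted cells, so dose and genotype change together in doxorubicin and their parts in any treated difference cannot be told apart. The labels do not say whether the deleted population is a single clone, nor whether replicates were grown as separate cultures, and p-values then measure the spread between libraries alone, part of which may be technical.

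The polymerase is built around its largest subunits. POLR2A encodes RPB1, which holds the active site together with RPB2 (POLR2B) and carries the C-terminal domain (CTD), a long tail of heptad repeats whose phosphorylation marks the stages of transcription. RPB3 (POLR2C) pairs with RPB11 in the assembly platform, RPB4 (POLR2D) and RPB7 (POLR2G) form the stalk, RPB9 (POLR2I) bears on fidelity, and RPB5 (POLR2E), RPB6 (POLR2F), RPB8 (POLR2H) and RPB10 (POLR2L) are shared by polymerases I, II and III. POLR2A lies on 17p, inside the arm the labels call lost, and a polymerase stalled at DNA damage is degraded through ubiquitination of RPB1. RNA levels of the subunit genes say nothing of how much protein or assembled polymerase a cell holds.

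Library totals ran from 66150539 to 99142099 counts. The 10 genes had from 1225 (POLR2I) to 72730 (POLR2A) counts in a library, so counting error is small. For some genes the spread between libraries of a group is as small, as for POLR2B in the intact DMSO group. Levels are given as CPM, the counts per 1000000 counts of a library after scaling by trimmed mean of M values. A check against the karyotype recorded for the named line found that 12 of 12 libraries did not match it, so the cells are called only what the labels call them. Of 6 mesenchymal markers 6 were present in every library, with VIM between 989 and 2525 CPM, and their summed level was 8792 to 9205 CPM in the intact DMSO group, 6172 to 6650 in the deleted DMSO group, 7648 to 7898 in the intact doxorubicin group and 4263 to 4295 in the deleted doxorubicin group. Of 6 epithelial and luminal markers CDH1, EPCAM, ESR1, PGR and KRT20 were under 1 CPM in all 12 libraries while GATA3 was at 12.9 to 23.2 CPM, and of 6 blood and endothelial markers only ITGAM passed 1 CPM, at up to 4.26. The summed epithelial and luminal level was 13.1 to 23.9 CPM in all, and the summed blood and endothelial level was 1.05 to 1.62 CPM in the other groups and 3.57 to 5.10 CPM in the deleted doxorubicin group. The part of the marker changes in the results on subunit genes was not tested, and in bulk RNA a smaller share of a cell type and less RNA per cell cannot be told apart.

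Libraries of a group were uneven. The share of mitochondrial genes was 6.90% in deleted DMSO replicate 2 and 5.54% in intact doxorubicin replicate 1, against 2.61% to 3.57% in the other 10 libraries. In these 2 libraries POLR2A was 1.52 and 1.34 times the mean of the other libraries of its group, POLR2E 0.492 and 0.589 times, POLR2L 0.522 and 0.564 times, and POLR2G 0.653 and 0.617 times. Across all genes, the deviation from the group mean ran against the GC content of the transcript in both (Spearman rho -0.60 and -0.53), and rho with transcript length was 0.09 and 0.17. Other libraries of these groups had trends of like size in the opposite direction, with a rho with GC content of 0.57 in intact doxorubicin replicate 2 and of 0.45 and 0.53 in deleted DMSO replicates 1 and 3. Deviations from a group mean cancel out over the libraries of the group. Opposite trends within a group are thus not separate observations, and they do not tell which library is biased. In intact doxorubicin replicate 2 the rho with length was -0.37, and the SD of the deviations over genes was 0.200 on the log2 scale, against 0.165 in replicate 1 of that group and 0.239 in deleted DMSO replicate 2. Calls on subunit genes that change without the 2 libraries of highest mitochondrial share, or without a single library, are given both ways. The plot of deviations shows the pattern across the subunit genes.

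**Figure D1:**
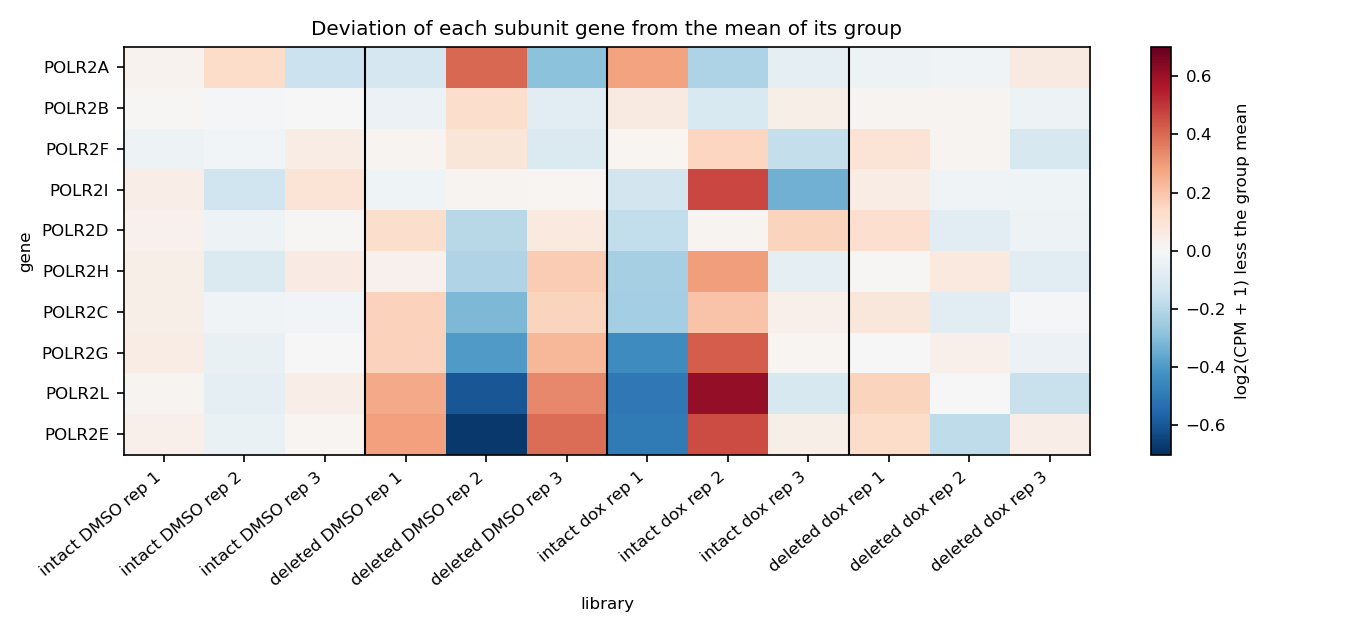
Deviation of each subunit gene, in log2(CPM + 1), from the mean of its own group, for the 12 libraries (columns) and 10 genes (rows), on a colour scale from low (blue) to high (red). In deleted DMSO replicate 2 and intact doxorubicin replicate 1, POLR2A is high while POLR2E, POLR2L and POLR2G are low, and in intact doxorubicin replicate 2 these 3 genes are high.

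The stretch upstream of the start is shown for the 3 genes on which the results turn most, POLR2A, POLR2D and POLR2H. POLR2A lies on the arm the labels call lost, and the RNA of POLR2D and POLR2H rose in treated deleted cells. The sequences are from RefSeq (GRCh38.p14), 5′ to 3′ on the gene's own strand, and each is the longest run within the 250 bases before the start that holds no annotated exon of any gene. POLR2A lies at chr17:7484264-7484365 on the plus strand, POLR2D at chr2:127858158-127858405 on the minus strand, and POLR2H at chr3:184361652-184361709 on the plus strand. Capitals mark matches to the motif letters spelled out below.
POLR2A: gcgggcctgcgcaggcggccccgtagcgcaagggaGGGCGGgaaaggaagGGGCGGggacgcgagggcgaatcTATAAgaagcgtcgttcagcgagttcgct
POLR2D: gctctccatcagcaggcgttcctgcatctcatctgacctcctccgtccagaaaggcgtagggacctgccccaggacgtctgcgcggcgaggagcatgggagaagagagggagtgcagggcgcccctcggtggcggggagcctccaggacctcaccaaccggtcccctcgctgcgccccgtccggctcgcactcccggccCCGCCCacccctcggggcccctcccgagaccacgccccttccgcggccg
POLR2H: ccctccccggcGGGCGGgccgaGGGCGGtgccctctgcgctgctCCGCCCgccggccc

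Of the 10 genes 8 have an entry in the RefSeq promoter table, with 10 entries in all, and each window of 300 bases (250 before the start and 50 after it) was searched on both strands. The letters GGGCGG, bound by SP and KLF factors, were found for 6 of the 8 genes, against 45.0% of 35116 promoters of the same length. TATAA was found for POLR2A alone among the 8, against 20.4% of promoters, and it lies within the run printed above. CCGGAAG, an ETS core, was found for POLR2C, POLR2D and POLR2F, and the NRF1 motif for POLR2B, POLR2E, POLR2F and POLR2H, against 10.3% and 5.78% of promoters. For POLR2H the NRF1 match lies only in the window of a second entry (chr3:184363111-184363410), not in that of the printed run. POLR2F and POLR2H each have a second entry and were searched in both windows, while the shares are per single promoter. CCAAT (NFY, in 34.6% of promoters) and GCCATNTT (YY1, in 6.58%) were found for none of the 8 genes. Overlaps between matches to different motifs were not removed, and a match describes the letters only. POLR2D and POLR2H share GGGCGG or its complement in these windows, as do POLR2A, POLR2B, POLR2E and POLR2L.

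Within a library the subunit genes spanned a wide range of RNA levels. Per kilobase of summed exon length, POLR2A stood highest in all 4 groups, at 57.7 ± 5.63 CPM per kb in the intact DMSO group, 72.0 ± 18.8 in the deleted DMSO group, 85.2 ± 15.6 in the intact doxorubicin group and 88.3 ± 3.34 in the deleted doxorubicin group (mean ± SD, n = 3). In the intact DMSO group the order below it was POLR2E (38.3 CPM per kb), POLR2L (31.6), POLR2B (27.7), POLR2C (23.3), POLR2G (19.3), POLR2H (15.8), POLR2I (15.4), POLR2D (9.86) and POLR2F (9.72). POLR2H and POLR2I overlapped there, as did POLR2D and POLR2F, and the other neighbours in the order did not overlap. POLR2H, in place 7 in both intact groups, stood in place 2 in the deleted doxorubicin group at 35.6 ± 1.85 CPM per kb. The order depends on the length used, since with the longest annotated transcript POLR2F moved from place 10 to place 6 in the intact DMSO group, while POLR2A stayed first in all 4 groups and POLR2H stayed second in the deleted doxorubicin group. The plot of levels by library shows all values.

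**Figure D2:**
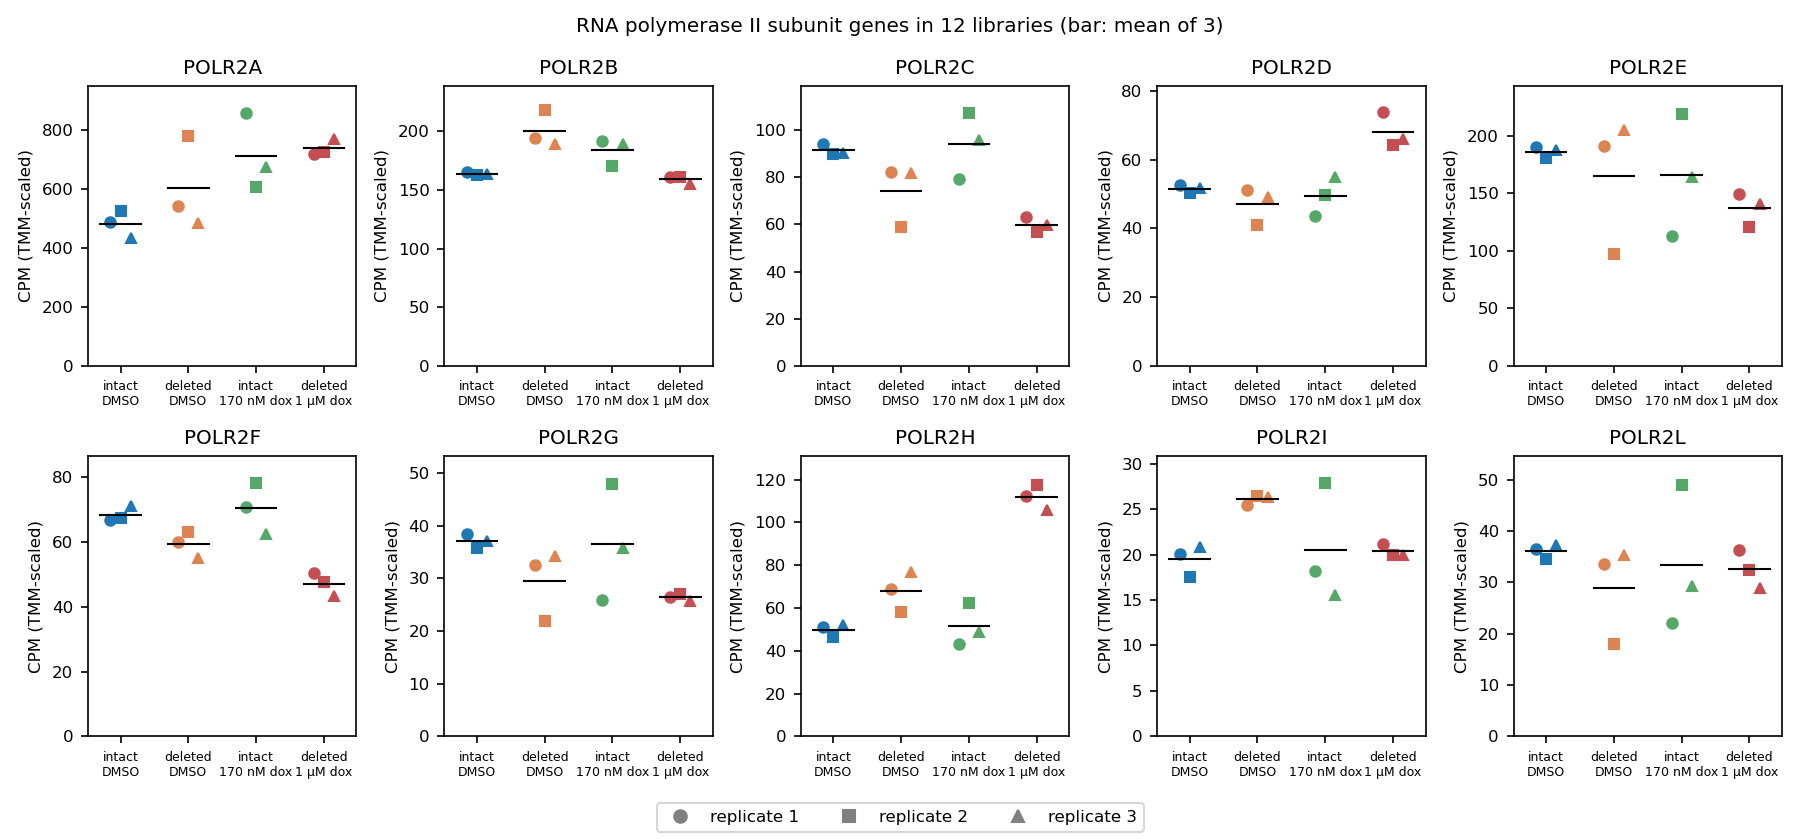
Level of each subunit gene in CPM (linear axes from 0) in the 12 libraries, with symbols for replicates 1 to 3 and a bar at the mean of 3. POLR2H is highest in the 3 libraries of the deleted doxorubicin group, at 106 to 117 CPM, and POLR2D is highest there too, at 64.2 to 73.7 CPM.

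The catalytic subunit gene POLR2A (chr17:7484366-7514616, plus strand, in GENCODE 29 on hg38) lies on the arm the labels call lost. The RNA level of a single gene does not measure the copies of an arm, so POLR2A does not test the label. In the intact DMSO libraries its level was 489, 525 and 432 CPM in replicates 1 to 3, and in the deleted DMSO libraries 543, 780 and 483 CPM. The groups overlapped, and the highest value was in the deleted library with the highest mitochondrial share. The log2 fold change of deleted over intact was 0.32 (SE 0.16, edgeR quasi-likelihood test, adjusted p = 0.151), with a 95% interval of -0.03 to 0.67, a fold of 0.977 to 1.59. Without the 2 libraries of highest mitochondrial share it was 0.06 (edgeR, adjusted p = 0.646), and without deleted DMSO replicate 3 alone it was 0.46 (edgeR, adjusted p = 0.0488). The mean of the deleted libraries was above that of the intact ones, without passing the threshold with all libraries. Group names are kept only as labels, here as throughout.

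In doxorubicin POLR2A was at 857, 606 and 673 CPM in the intact libraries and at 719, 725 and 770 CPM in the deleted ones. Every treated intact library was above every intact DMSO library, while among deleted libraries replicate 2 in DMSO was above all 3 treated ones. The log2 fold change with 170 nM in intact cells was 0.56 (SE 0.16, edgeR, unadjusted p = 0.00432, adjusted p = 0.212), which did not pass the threshold of an adjusted p of 0.05. With 1 µM in deleted cells it was 0.29 (SE 0.16, edgeR, adjusted p = 0.201). Without the 2 libraries of highest mitochondrial share these became 0.42 and 0.52, and both passed (edgeR, adjusted p = 0.0395 and 4.01e-04), so the call on POLR2A changes with those libraries. Leaving out replicate 2 of the deleted DMSO group alone gave 0.56 and 0.51, which also both passed (edgeR, adjusted p = 0.0272 and 0.00538). Between the treated groups POLR2A differed by 0.05 (SE 0.16, edgeR, adjusted p = 0.818, interval -0.30 to 0.40), and the doxorubicin effects differed by -0.27 (SE 0.23, edgeR, adjusted p = 0.482, interval -0.77 to 0.23). The same intact DMSO libraries serve the genotype and the doxorubicin comparison.

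Set against its partners in the same library, POLR2A less the mean log2(CPM + 1) of the other 9 genes was 2.94 ± 0.18 in the intact DMSO group, 3.29 ± 0.57 in the deleted DMSO group, 3.52 ± 0.51 in the intact doxorubicin group and 3.63 ± 0.11 in the deleted doxorubicin group (mean ± SD, n = 3). Apart from the small effect of the pseudocount, this difference does not depend on the library scaling. It was highest in the libraries of highest mitochondrial share, at 4.04 in intact doxorubicin replicate 1 and 3.93 in deleted DMSO replicate 2. The 3 treated deleted libraries, at 3.52 to 3.74, lay above the 3 intact DMSO libraries, at 2.76 to 3.12. Over the 12 libraries, the genes whose log2(CPM + 1) followed POLR2A most closely among 10811 ranked were NCOR1 (Pearson r = 0.98), RERE (0.96), RFC1 (0.95), CHAMP1 (0.95) and CASC3 (0.94). The 12 points share the library effects described above, and of the subunit genes the one most unlike POLR2A was POLR2E (r = -0.82).

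POLR2B, the other large catalytic subunit gene, had its highest mean in the deleted DMSO group. That group enters the genotype comparison in DMSO and the doxorubicin comparison in deleted cells with opposite signs, so the calls are not independent. It was at 165, 163 and 163 CPM in the intact DMSO group, at 194, 218 and 189 in the deleted DMSO group, at 192, 171 and 189 in the intact doxorubicin group and at 161, 161 and 155 in the deleted doxorubicin group. All 3 deleted DMSO libraries were above all 3 intact DMSO libraries and above all 3 treated deleted libraries. In DMSO POLR2B was higher in deleted cells (log2 fold change 0.29, SE 0.08, edgeR, adjusted p = 0.0132), and in deleted cells it fell with doxorubicin (-0.33, SE 0.08, edgeR, adjusted p = 0.00687). The difference of the doxorubicin effects was -0.50 (SE 0.12, edgeR, adjusted p = 0.0085), and the effect in intact cells was 0.17 (edgeR, adjusted p = 0.455). The lower level in treated deleted than in treated intact cells (-0.21, edgeR, adjusted p = 0.0496) sat at the threshold and passed in 12 of 24 alternatives. It was lost without intact DMSO replicate 1 or 3, deleted DMSO replicate 1 or 3, intact doxorubicin replicate 1 or 3, or any one treated deleted library, at -0.26 to -0.19 (edgeR, adjusted p from 0.0521 to 0.118). The DMSO difference was 0.20 without the 2 libraries of highest mitochondrial share (edgeR, adjusted p = 0.0492). The DMSO call was lost when intact DMSO replicate 2 (0.24, edgeR, adjusted p = 0.0867), deleted DMSO replicate 2 (0.21, 0.0614) or any one of the treated deleted libraries (0.23 to 0.24, 0.058 to 0.0645) was left out. POLR2B shares 4.58% of its exon length with IGFBP7 and 7.85% with NOA1 on the opposite strand, and the strand setting of the counting is not given. IGFBP7, which encodes a secreted insulin-like growth factor binding protein, had a mean of 10.9 CPM in intact DMSO and 28.4 CPM in deleted DMSO libraries, and its part in the POLR2B counts was not tested.

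POLR2C, which encodes the assembly subunit RPB3, was lower in treated deleted than in treated intact cells. Its level was 79.2, 107 and 95.8 CPM in the treated intact libraries and 63.2, 56.9 and 59.6 CPM in the treated deleted ones, with no overlap. The log2 fold change was -0.65 (SE 0.13, edgeR, adjusted p = 0.00111) and remained past the threshold in 24 of 24 alternatives. In DMSO the intact libraries were at 94.2, 90.1 and 90.5 CPM and the deleted ones at 82.1, 58.9 and 81.8 CPM, which did not overlap but did not pass the test (-0.30, SE 0.13, edgeR, adjusted p = 0.0945). The doxorubicin effect in deleted cells was -0.31 (edgeR, adjusted p = 0.0956), and -0.46 without the 2 libraries of highest mitochondrial share (edgeR, adjusted p = 3.86e-04). Without deleted DMSO replicate 2 alone it was -0.47 (edgeR, adjusted p = 0.00513), and the difference of effects was -0.50 (edgeR, adjusted p = 0.0325), against -0.62 without the 2 libraries (edgeR, adjusted p = 0.00123) and -0.35 with all (edgeR, adjusted p = 0.232).

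Among the genes of subunits shared by polymerases I, II and III, POLR2H, which encodes RPB8, had the largest log2 fold changes past the threshold. Its level was 51.2, 46.4 and 51.9 CPM in the intact DMSO libraries, 68.9, 58.3 and 76.6 in the deleted DMSO libraries, 43.2, 62.5 and 48.7 in the intact doxorubicin libraries and 112, 117 and 106 in the deleted doxorubicin libraries. Every treated deleted library was above every other library, and the 3 deleted DMSO libraries were above the 3 intact DMSO ones. POLR2H was higher in deleted cells in DMSO (log2 fold change 0.45, SE 0.13, edgeR, adjusted p = 0.0184) and in doxorubicin (1.12, SE 0.13, edgeR, adjusted p = 1.2e-05, a fold of 2.17), and it rose with doxorubicin in deleted cells (0.72, SE 0.13, edgeR, adjusted p = 9.66e-04). In intact cells the effect was 0.05 (interval -0.24 to 0.33, edgeR, adjusted p = 0.927), and the doxorubicin effects differed by 0.67 (SE 0.19, edgeR, adjusted p = 0.025). The 2 treated comparisons passed in 24 of 24 alternatives, and the difference of effects in 16 of 23. The DMSO call was lost without intact DMSO replicate 2 (0.35, edgeR, adjusted p = 0.127), deleted DMSO replicate 3 (0.35, 0.0788), or deleted doxorubicin replicate 1 or 3 (0.39 in both, 0.0535 and 0.0513). The difference of effects was lost without any one of intact DMSO replicates 1 and 3, intact doxorubicin replicates 1 and 3 and deleted doxorubicin replicates 1 and 2, at 0.56 to 0.68 (edgeR, adjusted p from 0.0523 to 0.0665), and with the replicate number as a block. It was 0.45 without the 2 libraries of highest mitochondrial share (edgeR, adjusted p = 0.0476).

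POLR2F, which encodes RPB6, was lower in treated deleted cells. Its level was 66.8, 67.5 and 71.1 CPM in the intact DMSO libraries, 60.1, 63.1 and 55.2 CPM in the deleted DMSO libraries, 71.0, 78.3 and 62.6 CPM in the treated intact libraries and 50.3, 47.8 and 43.5 CPM in the treated deleted ones. The 3 treated deleted libraries were below all 9 others. It fell with doxorubicin in deleted cells (log2 fold change -0.33, SE 0.10, edgeR, adjusted p = 0.0208) and was lower than in treated intact cells (-0.58, SE 0.10, edgeR, adjusted p = 2.87e-04). The call with doxorubicin was lost without deleted DMSO replicate 1 (-0.33, edgeR, adjusted p = 0.0543) or deleted doxorubicin replicate 2 (-0.35, 0.0521) or 3 (-0.28, 0.0993). In DMSO the difference of -0.20 did not pass (edgeR, adjusted p = 0.133), although the groups did not overlap. It passed without intact doxorubicin replicate 2 (-0.24, edgeR, adjusted p = 0.0365) and without the 2 libraries of highest mitochondrial share (-0.28, edgeR, adjusted p = 0.0402). The difference of the doxorubicin effects did not pass with all libraries (-0.38, SE 0.14, edgeR, adjusted p = 0.0845). It passed in 4 of 23 alternatives, among them without intact doxorubicin replicate 3 (-0.46, edgeR, adjusted p = 0.0416). POLR2F lies on chromosome 22, where 266 other genes with a mean of at least 5 CPM had a median log2 fold change of deleted over intact of -0.44 in DMSO and -0.39 in doxorubicin. Over all 11054 genes at that level the medians were 0.05 and -0.02. The doxorubicin effect in deleted cells had a median of 0.05 over the chromosome 22 genes, against -0.33 for POLR2F. Other chromosomes were taken by the same rule, deleted over intact, in DMSO and in doxorubicin. Their medians were 0.18 and -0.002 beside POLR2B, -0.12 and -0.14 beside POLR2C, and 0.14 and 0.04 beside POLR2D. They were 0.06 and -0.05 beside POLR2H, 0.08 and 0.08 beside POLR2E and POLR2I, and 0.13 and 0.10 beside POLR2G and POLR2L.

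POLR2E and POLR2L, for RPB5 and RPB10, did not pass in any of the 5 comparisons. POLR2E was at 190, 180 and 188 CPM in the intact DMSO group, 191, 97.5 and 205 in the deleted DMSO group, 113, 219 and 164 in the intact doxorubicin group and 149, 120 and 141 in the deleted doxorubicin group. POLR2L was at 36.5, 34.5 and 37.2 CPM, then 33.5, 18.0 and 35.3, then 22.0, 48.9 and 29.2, and then 36.3, 32.3 and 29.0 in the same order of groups. For both genes the lowest library was deleted DMSO replicate 2 and the next lowest intact doxorubicin replicate 1, the libraries of highest mitochondrial share. Without them POLR2E was lower with doxorubicin in deleted cells (-0.54, edgeR, adjusted p = 0.00186) and lower in treated deleted than in treated intact cells (-0.53, edgeR, adjusted p = 0.00124), and the doxorubicin effects differed by -0.59 (edgeR, adjusted p = 0.0181). Without deleted DMSO replicate 2 alone POLR2E also passed with doxorubicin in deleted cells (-0.55, edgeR, adjusted p = 0.0371). POLR2L did not pass without the 2 libraries in any comparison. POLR2L shares 22.5% of its exon length with CD151 on the opposite strand, and its counts are uncertain for that reason.

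The genes of the stalk did not move alike. POLR2D, for RPB4, was at 52.6, 50.2 and 51.8 CPM in the intact DMSO group, 51.2, 40.9 and 49.2 in the deleted DMSO group, 43.6, 49.8 and 54.9 in the intact doxorubicin group and 73.7, 64.2 and 66.1 in the deleted doxorubicin group. Every treated deleted library was above all 9 others. POLR2D rose with doxorubicin in deleted cells (log2 fold change 0.53, SE 0.11, edgeR, adjusted p = 0.00223) and was higher than in treated intact cells (0.46, SE 0.11, edgeR, adjusted p = 0.00342), both in 24 of 24 alternatives, and the doxorubicin effects differed by 0.59 (SE 0.16, edgeR, adjusted p = 0.0186). That difference was 0.40 without the 2 libraries of highest mitochondrial share (edgeR, adjusted p = 0.0349) and was lost without intact DMSO replicate 1 (0.57, edgeR, adjusted p = 0.0524), intact doxorubicin replicate 1 (0.50, 0.0659) or deleted doxorubicin replicate 1 (0.54, 0.058). POLR2G, for its partner RPB7, was at 26.4, 27.0 and 25.6 CPM in the treated deleted group and at 25.8, 47.9 and 35.8 in the treated intact group. The difference of -0.47 did not pass (SE 0.19, edgeR, adjusted p = 0.0615), and without the 2 libraries of highest mitochondrial share it was -0.71 (edgeR, adjusted p = 5.63e-05). It also passed without deleted DMSO replicate 2 alone (-0.50, edgeR, adjusted p = 0.015) and without intact doxorubicin replicate 1 alone (-0.70, 0.00503). In DMSO POLR2G was at 38.5, 35.7 and 37.2 CPM in intact and at 32.6, 21.8 and 34.3 CPM in deleted cells (-0.33, edgeR, adjusted p = 0.215). The doxorubicin effect in deleted cells was -0.17 (edgeR, adjusted p = 0.57), and it passed without the 2 libraries of highest mitochondrial share (-0.35, edgeR, adjusted p = 0.0182), as did the difference of effects (-0.53, edgeR, adjusted p = 0.0219). A processed pseudogene, RPS26P19, covers 6.68% of the exon length of POLR2D on the same strand.

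POLR2I, for RPB9, was at 20.1, 17.6 and 20.8 CPM in the intact DMSO group and at 25.5, 26.4 and 26.3 in the deleted DMSO group. The groups did not overlap, and the log2 fold change of 0.42 did not pass (SE 0.17, edgeR, adjusted p = 0.0677). With doxorubicin the intact libraries were at 18.1, 27.9 and 15.6 CPM and the deleted ones at 21.1, 20.0 and 19.9 CPM, below the 3 deleted DMSO libraries (-0.36, SE 0.17, edgeR, adjusted p = 0.124). Without intact doxorubicin replicate 2 both passed, at 0.38 in DMSO and -0.36 with doxorubicin (edgeR, adjusted p = 0.00705 and 0.011), and without intact doxorubicin replicate 3 the DMSO difference passed (0.42, edgeR, adjusted p = 0.0364). A gene on the opposite strand with no symbol covers 61.9% of the exon length of POLR2I and TBCB 32.9%, so its counts are uncertain.

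**Figure D3:**
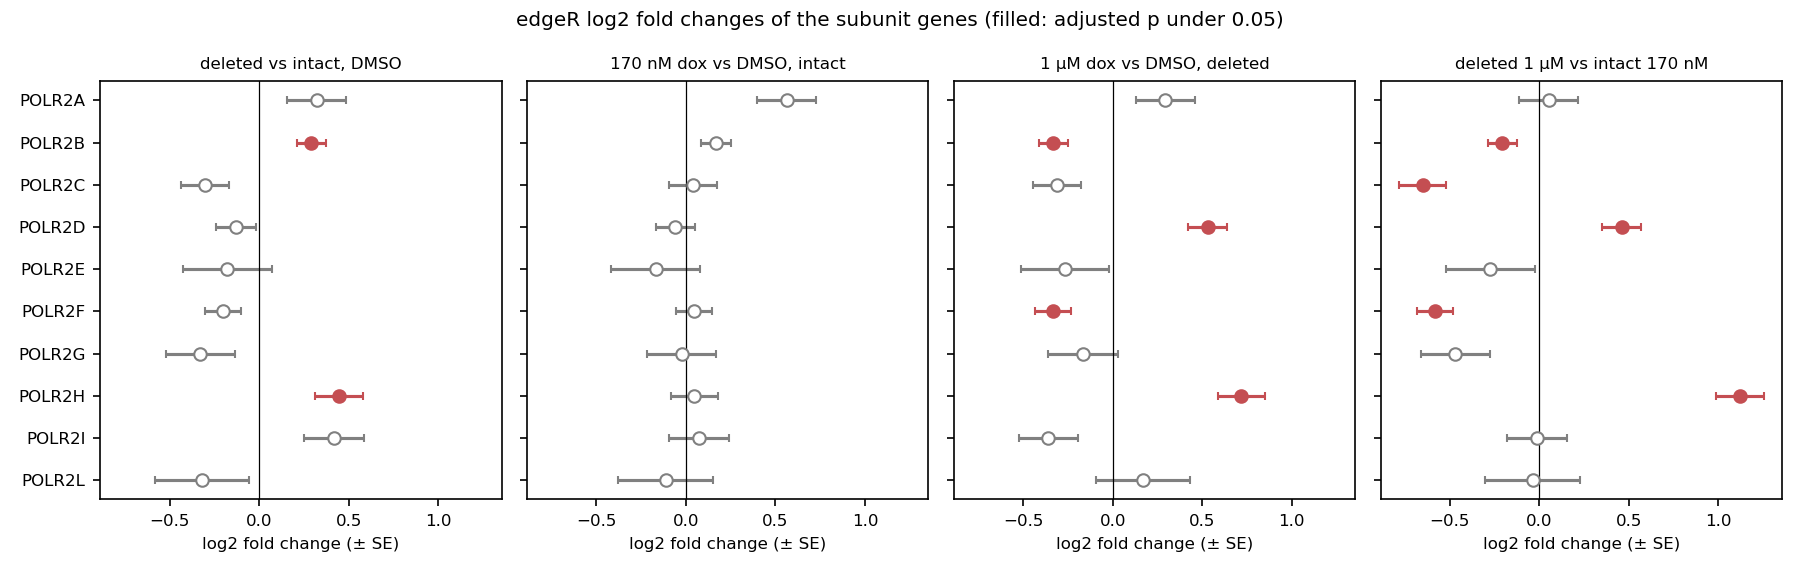
Log2 fold changes (point, ± SE) of the 10 subunit genes in 4 comparisons from the edgeR fit, with filled points where the adjusted p is under 0.05. POLR2H and POLR2D are to the right in both panels with treated deleted cells, POLR2F to the left, and no gene is filled for 170 nM in intact cells.

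As a group the subunit genes did not move together. In DMSO 2 of 10 were higher in deleted cells (POLR2B and POLR2H) and 0 lower, where 18.8% and 16.2% of all genes tested were (34.9% in either direction), and the median log2 fold change of the 10 was -0.15 against 0.04 over all genes. The 3 with groups that did not overlap and a higher level (POLR2B, POLR2H, POLR2I) and the 3 with a lower level (POLR2C, POLR2F, POLR2G) stand beside 25.7% and 23.9% of all genes. With 170 nM in intact cells 0 of 10 passed in edgeR, where 0.0596% of all genes did (0.0275% higher, 0.0321% lower). POLR2A alone of the 10 had an unadjusted p under 0.05 there and alone passed in DESeq2. In that comparison 2 of 10 did not overlap and were higher (POLR2A and POLR2B), against 10.7% of all genes, and 0 of 10 lower, against 8.67%.

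With 1 µM in deleted cells 2 of 10 rose (POLR2D and POLR2H) and 2 fell (POLR2B and POLR2F), where 17.5% and 13.1% of all genes did, and the groups did not overlap for 2 higher and 3 lower genes against 24.6% and 20.7%. The median of the 10 was -0.22 against -0.02. Without the 2 libraries of highest mitochondrial share 3 rose and 5 fell, where 18.9% and 16.2% of all genes did at that setting. Between the treated groups 2 of 10 were higher in deleted cells (POLR2D and POLR2H) and 3 lower (POLR2B, POLR2C and POLR2F), where 25.9% and 21.9% of all genes were, and the groups of the same 5 genes did not overlap, against 31.4% and 25.6%. Without the 2 libraries of highest mitochondrial share 5 were lower, POLR2E and POLR2G added, where 25.8% of all genes were. For the difference of the doxorubicin effects 2 of 10 were higher (POLR2D and POLR2H) and 1 lower (POLR2B), where 10.3% and 6.74% of all genes were. Without those 2 libraries 4 were lower, POLR2C, POLR2E and POLR2G added, where 9.72% of all genes were. Each comparison of treated libraries also carries the difference in dose.

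Pairs of subunit genes varied together to different degrees over the 12 libraries. POLR2C and POLR2G had a Pearson r of 0.90, POLR2E and POLR2G of 0.90, POLR2E and POLR2L of 0.86 and POLR2D and POLR2H of 0.77, while POLR2F and POLR2H had an r of -0.86 and the stalk partners POLR2D and POLR2G of -0.10. These values mix the differences between groups with the libraries that stand apart and are given as a description.

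The neighbours of POLR2A on 17p gave the setting for its level. The 40 tested genes, whose starts lie from 267 kb before to 448 kb after the start of POLR2A, had a median log2 fold change of deleted over intact of -0.38 in DMSO, with 13 lower and 6 higher beside 16.2% and 18.8% of all genes, and of -0.35 in doxorubicin, with 15 lower and 8 higher beside 21.9% and 25.9%. In doxorubicin 23 were lower without the 2 libraries of highest mitochondrial share, where 25.8% of all genes were. Of the 24 with a mean of at least 5 CPM, 8 were lower and 1 higher in DMSO, and 11 lower and 2 higher in doxorubicin. Shares over all genes at that level are not given. With a filter of 1 CPM in 3 libraries, 23.4% of all genes were lower and 22.9% higher in DMSO. In doxorubicin 28.9% were lower and 29.3% higher with that filter. Of the 24, 2 stood above POLR2A in DMSO and 6 in doxorubicin. CHD3, a chromatin remodeller, was at 280 ± 8.80 CPM in intact DMSO and 186 ± 9.77 CPM in deleted DMSO libraries (mean ± SD, n = 3) and was lower in deleted cells by a log2 fold change of -0.60 (SE 0.08, edgeR, adjusted p = 5.14e-05). TNK1, at a mean of 0.93 CPM over the 12 libraries, was higher in deleted cells in DMSO by 4.12 (edgeR, adjusted p = 1.16e-05). In doxorubicin PHF23, a PHD finger gene, differed by -1.17 (edgeR, adjusted p = 1.29e-07). KCTD11 was higher in deleted cells there, by 1.52 (edgeR, adjusted p = 7.42e-08). KCTD11 rose with doxorubicin in deleted cells by 1.60 (edgeR, adjusted p = 8.29e-08). Along the whole arm, 192 genes with a mean of at least 5 CPM had a median of -0.14 in DMSO, and 88.0% of them were at or below the POLR2A value of 0.32, which was 0.06 without the 2 libraries of highest mitochondrial share. In doxorubicin the median was -0.10, and 63.0% were at or below POLR2A.

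**Figure D4:**
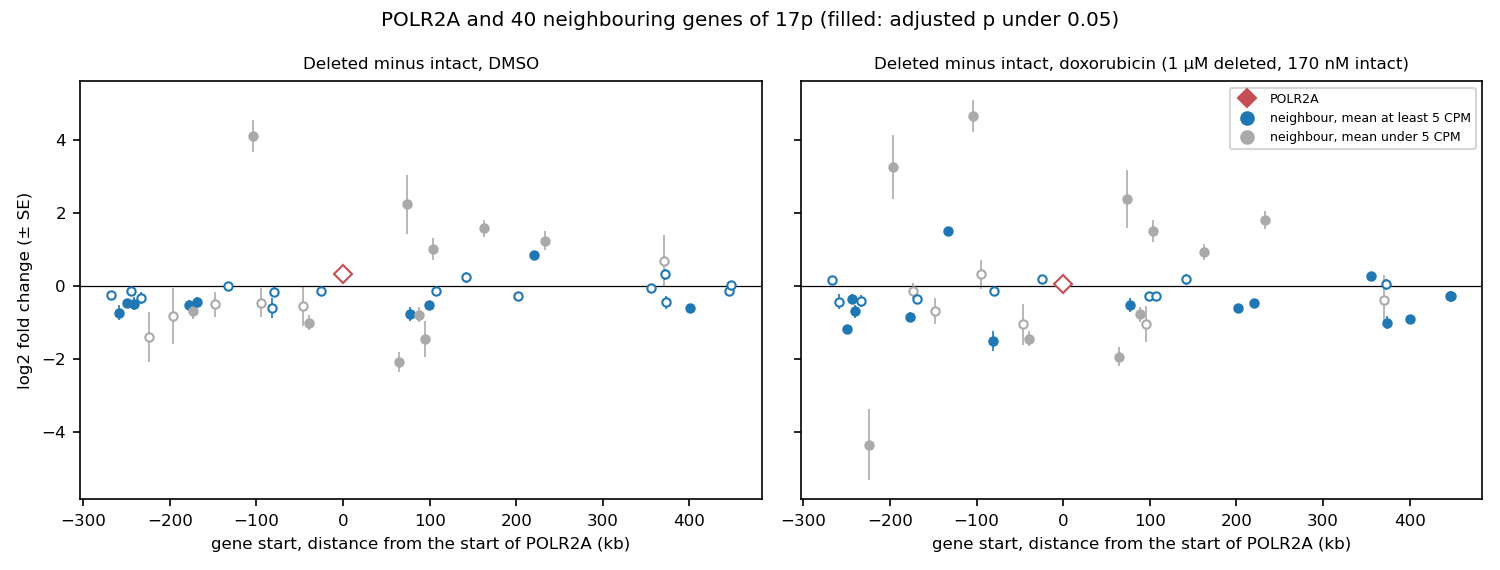
Log2 fold change (± SE) of deleted over intact cells for POLR2A (diamond) and 40 neighbouring genes against the distance of their start from that of POLR2A in kb, in DMSO (left) and doxorubicin (right), filled where the adjusted p is under 0.05 and grey where the mean is under 5 CPM. POLR2A is at 0.32 and 0.05, against neighbour medians of -0.38 and -0.35.

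The rest of the transcription machinery was read from 7 lists of 148 genes in all, the specific subunits of polymerases I and III included. The general transcription factors, which place the polymerase at the start site, differed in both directions. The shares of all genes tested to set beside this and the following lists are 18.8% higher and 16.2% lower in DMSO, 17.5% and 13.1% with 1 µM in deleted cells, 25.9% and 21.9% between treated groups, and 10.3% and 6.74% for the difference of effects. In DMSO 10 of 27 were higher in deleted cells and 2 lower, with CCNH (0.56, edgeR, adjusted p = 2.19e-04), a cyclin of the kinase module of TFIIH, and TAF7 (0.53, edgeR, adjusted p = 5.84e-04), a subunit of TFIID, among the higher. Without intact DMSO replicate 1 the count of higher genes was 6, and without deleted DMSO replicate 2 that of lower genes was 5. With 1 µM in deleted cells 1 of 27 rose and 8 fell, with CCNH at -0.78 (edgeR, adjusted p = 1.26e-05) and TAF10 at -0.72 (edgeR, adjusted p = 2.62e-04). The doxorubicin effects differed downward for 8 of 27 (median -0.35 against -0.03 over all genes), with CCNH at -0.96 and its kinase partner CDK7, which phosphorylates the CTD, at -0.71 (edgeR, adjusted p = 9.76e-05 and 0.00313). That count fell to 3 with library totals as the scaling, and with the replicate number as a block, and to 3 or 4 when any one of 7 libraries was left out (each intact DMSO library, intact doxorubicin replicate 1 and each deleted doxorubicin library). Between the treated groups 13 of 27 were lower in deleted cells and 2 higher, or 8 and 6 with library totals, and 1 was higher without intact doxorubicin replicate 1 or any one treated deleted library.

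Mediator, which links activators to the polymerase, had 5 of 31 genes higher and 3 lower in DMSO (18.8% and 16.2% of all genes), and 7 lower without intact doxorubicin replicate 2. MED12 and MED22 were higher in deleted cells in DMSO (0.97 and 1.30, edgeR, adjusted p = 1.5e-05 and 2.52e-05) and in doxorubicin (0.86 and 1.87, edgeR, adjusted p = 1.88e-05 and 4.24e-07). Of the 148 machinery genes 3 start on 17p before 23 Mb, all in Mediator. MED11 was lower in deleted cells in DMSO and in doxorubicin (-0.66 and -0.76, edgeR, adjusted p = 2.63e-04 and 3.93e-05), MED31 was at -0.33 in DMSO (edgeR, adjusted p = 0.0687) and lower in doxorubicin (-0.85, edgeR, adjusted p = 1.46e-04), and MED9 was at -0.10 and -0.15 and passed in neither. In deleted cells 3 Mediator genes rose with 1 µM and 2 fell, among them MED7 at -0.67 (edgeR, adjusted p = 8.92e-04). The 3 became 1 without deleted DMSO replicate 2 or deleted doxorubicin replicate 1 and 0 without deleted doxorubicin replicate 3, and the 2 became 4 without deleted DMSO replicate 2 and 1 without deleted doxorubicin replicate 2.

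Among factors that hold the polymerase at a pause or release it, 5 of 26 were higher in deleted cells in DMSO and 3 lower (18.8% and 16.2% of all genes), and 2 or 3 were higher without any one intact DMSO or treated deleted library. NELFE, of the negative elongation factor that holds paused polymerase, was lower (-0.94, edgeR, adjusted p = 5.3e-06), and CDK9, the kinase of P-TEFb that releases it, was higher (0.76, edgeR, adjusted p = 1.64e-05), and both held the same direction in doxorubicin (-0.97 and 0.83, edgeR, adjusted p = 1.74e-06 and 3.16e-06). In deleted cells 2 of 26 rose with 1 µM and 3 fell (5 without deleted DMSO replicate 2 or intact doxorubicin replicate 2), and the super elongation complex gene ELL and its partner EAF1 rose (0.81 and 0.61, edgeR, adjusted p = 1.95e-04 and 1.9e-04). ELL also differed between the doxorubicin effects (0.88, edgeR, adjusted p = 0.003). Among genes that write, erase or read CTD phosphorylation, 4 of 17 were higher in deleted cells in DMSO and 2 lower (1 without intact DMSO replicate 1 or 3 or deleted DMSO replicate 1 or 3). CTDSPL, a CTD phosphatase, and CDK13, a CTD kinase, were higher (0.60 and 0.78, edgeR, adjusted p = 1.25e-04 and 2.46e-04). In deleted cells 1 of 17 rose with 1 µM (0 without deleted DMSO replicate 1 or 3 or deleted doxorubicin replicate 2) and 3 fell (1 without deleted doxorubicin replicate 1 or 3), including PCIF1, the cap methyltransferase that binds the phosphorylated CTD, at -0.41 (edgeR, adjusted p = 0.00738).

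Factors that assemble the polymerase and carry it into the nucleus had 4 of 14 genes higher and 3 lower in DMSO (18.8% and 16.2% of all genes), and 2 higher without intact DMSO replicate 2. The prefoldin subunit gene PFDN6 was lower (-1.04, edgeR, adjusted p = 2.16e-06) and the GTPase gene GPN1, needed for import of the polymerase, was higher (0.77, edgeR, adjusted p = 1.16e-05). In doxorubicin SLC7A6OS, the human homologue of the import factor Iwr1, was lower in deleted cells (-1.39, edgeR, adjusted p = 1.51e-06), with means of 28.1 CPM in intact and 10.7 CPM in deleted cells. Genes that recognise stalled polymerase or ubiquitinate RPB1 had 5 of 15 higher and 4 lower in DMSO, again beside 18.8% and 16.2% of all genes. The 5 became 2 or 3 without any one intact DMSO or treated deleted library, deleted DMSO replicate 2 or intact doxorubicin replicate 3, and the 4 became 2 without intact DMSO replicate 1 or 3 or deleted DMSO replicate 1. The ubiquitin ligase gene WWP2 was lower in deleted cells (-1.21, edgeR, adjusted p = 4.05e-07) and ERCC6, whose product CSB binds stalled polymerase, was higher (0.79, edgeR, adjusted p = 6.67e-04). In deleted cells 1 of 15 rose with 1 µM (0 without deleted DMSO replicate 2 or deleted doxorubicin replicate 2 or 3) and 4 fell (2 without deleted doxorubicin replicate 2 or 3), among them CUL4A (-0.53, edgeR, adjusted p = 2.03e-04) and NEDD4 (-0.56, edgeR, adjusted p = 0.00694), both of ubiquitin ligases.

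The specific subunits of polymerases I and III, which share POLR2E, POLR2F, POLR2H and POLR2L with polymerase II, had 2 of 18 genes higher (1 without intact DMSO replicate 2) and 6 lower in deleted cells in DMSO, beside 18.8% and 16.2% of all genes. POLR3A, the largest subunit of polymerase III, was lower (-0.60, edgeR, adjusted p = 3.9e-04) and rose with 1 µM in deleted cells (0.63, edgeR, adjusted p = 2.59e-04), where 4 of 18 rose (2 without deleted doxorubicin replicate 2 or 3) and 3 fell (5 without intact doxorubicin replicate 3), beside 17.5% and 13.1% of all genes. POLR3B, its second largest subunit, was lower in treated deleted than in treated intact cells (-0.72, edgeR, adjusted p = 1.89e-04). With 170 nM in intact cells 0 genes of any of these lists passed in edgeR, where 13 of 21803 genes passed and 2504 had an unadjusted p under 0.05, while DESeq2 called 467. Leaving out 1 library at a time gave 0 to 220 genes, with 220 without deleted DMSO replicate 2, 81 without intact doxorubicin replicate 2, and 0 to 5 without any other.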

How the data were processed

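The authors deposited 1 table of raw counts per gene, with 1 column per library and no other normalization. The submitters' processing notes name the build hg38, the aligner STAR (2.7.9a) and featureCounts (Subread 2.0.1). Which annotation was counted, and whether by strand, is not given in the sources used here. Per the labels' protocols, total RNA was made into libraries with a KAPA RNA kit. GENCODE 29 gave positions for 58385 of the 60660 identifiers.

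Low counts were removed with filterByExpr. A quasi-likelihood fit of all 4 groups was made in edgeR 4.0.16 (R 4.3.3) after scaling by TMM, the trimmed mean of M values, with Benjamini-Hochberg adjustment over the 21803 genes tested in each of 5 comparisons and a threshold of 0.05. Standard errors (SE) are the log2 fold change over the square root of F, and 95% intervals use the degrees of freedom of the fit. Log2 levels have a pseudocount of 1. The code was tested on simulated data in which 200 genes had known changes. Within groups, every pair of libraries differed beyond sampling noise (chi-square over its degrees of freedom 8.03 to 185), and each was entered as 1 replicate. Such a difference does not show that the libraries came from separate cultures.

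The members, gene lists and tests were chosen with earlier results of these data known. Genes outside the subunits are named by a rule: from each list and comparison, up to 2 members with the lowest p past the threshold and the most abundant that did not pass, of which not all are printed, and the 5 genes most like POLR2A with a mean of at least 5 CPM. Members of Mediator on 17p and genes that overlap a subunit gene are named besides, and were chosen after their values were seen. Alternatives were RLE size factors, library totals, no filter, a minimum of 1 CPM in 3 libraries, tests by DESeq2 1.42.0, limma-voom (limma 3.58.1), fits of the compared groups alone, the replicate number as a block, removal of the GC trend (loess, span 0.5), leaving out the 2 libraries of highest mitochondrial share, and leaving out each library. Removal of a transcript length trend was added after seeing the data.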

Additional observations from a re-analysis of the deposited data

Results flagged for a closer look

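The doxorubicin effect, which is 1 µM in deleted cells and 170 nM in intact cells, differed between the cells by the interaction test of edgeR for 3 of the 10 subunit genes, where 17% of all genes tested did. For POLR2D the effect was 0.59 higher in deleted cells (log2, SE 0.16, edgeR, adjusted p = 0.0186). For POLR2H, the gene of RPB8, it was 0.67 higher (SE 0.19, edgeR, adjusted p = 0.025), and for POLR2B, the gene of RPB2, it was -0.50 (SE 0.12, edgeR, adjusted p = 0.0085). In all 3 libraries of the treated deleted group POLR2D and POLR2H were above the deleted DMSO libraries, and POLR2B was below them. Dose and genotype cannot be told apart in these differences. The call on POLR2H passed in 16 of 23 alternatives and was lost with the replicate block (edgeR, adjusted p = 0.0528), and those on POLR2D and POLR2B passed in 20 and 22.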

How the results depend on the processing

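Over 24 alternatives (23 for the difference of effects) POLR2B, POLR2D and POLR2H with doxorubicin in deleted cells, and POLR2C, POLR2D, POLR2F and POLR2H between treated groups, kept their direction and stayed past the threshold in every one. POLR2H in DMSO passed in 20, POLR2B in DMSO in 18, POLR2F in treated deleted cells in 21, and the difference of effects in 22 for POLR2B, 20 for POLR2D and 16 for POLR2H. No called value of a subunit gene changed sign, and 43 uncalled values of subunit genes did. Where a count moved, the cause was not tested.

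Counts of the 10 genes that moved by more than 1.5 times, or from or to 0, are as follows. With no filter, those higher in DMSO went from 2 to 1, those lower in DMSO from 0 to 3, those higher with 170 nM from 0 to 1, and those lower in the difference of effects from 1 to 0. With a filter of 1 CPM, 1 was lower in DMSO, and with DESeq2 1 was higher with 170 nM. With the GC trend removed, and also with the replicate block on top of it, 4 were lower with 1 µM and 3 lower in the difference. With the length trend removed 2 were lower in the difference. Without the 2 libraries of highest mitochondrial share 1 was lower in DMSO, 1 higher with 170 nM, 5 lower with 1 µM, 5 lower between treated groups and 4 lower in the difference. Smaller moves were from 2 to 3 higher in DMSO (GC or length trend removed, only the groups compared), 2 to 3 lower with 1 µM (length trend removed, only the groups compared), 2 to 3 higher with 1 µM (without the 2 libraries), and 3 to 4 (no filter, GC or length trend removed, only the groups compared, DESeq2) or 3 to 2 (library totals, replicate block) lower between treated groups. Leaving out each library gave 0 to 3 higher and 0 to 1 lower in DMSO, 0 to 1 higher with 170 nM, 2 to 3 higher and 1 to 4 lower with 1 µM, 2 to 4 lower between treated groups, and 0 to 2 higher and 1 to 2 lower in the difference. POLR2A less the median of the other 9 genes was 3.20 in the intact DMSO group, against 2.94 with the mean, and the order of the treated groups turned, with 3.70 in intact and 3.60 in deleted cells against 3.52 and 3.63, within the SD in intact cells.

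Same-numbered libraries did not deviate together, with r from -0.65 to 0.27 and in 6 of 18 comparisons of a library with the 3 of another group the same-numbered one correlated best. With the replicate block the difference of effects had 1 gene higher in place of 2, since POLR2H had an adjusted p of 0.0528 in edgeR, and POLR2B between treated groups had one of 0.0856.

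Over all genes, calls with 170 nM went from 13 to 0 (only the groups compared, replicate block), 25 (limma-voom), 48 (library totals), 65 (a filter of 1 CPM), 90 (length trend removed), 106 (replicate block with the GC trend removed), 195 (without the 2 libraries of highest mitochondrial share), 196 (no filter), 271 (GC trend removed) and 467 (DESeq2). The share of calls that were higher went from 46.2% to 14.6% with library totals there. It went from 57.2% to 47.0% with the GC trend and 45.5% with the length trend removed for 1 µM. For the difference it went from 60.3% to 71.3%, 46.7% and 45.7% under those 3 settings. The lowest count of a subunit gene was 1225 at totals of 66150539 or more, so counting error is small. The SE of the fit rests mainly on the spread between libraries, estimated over all 4 groups.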
